A study of Mus musculus with 6 samples.

Results

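Genes of glucose and lactate transport, glycolysis and pyruvate dehydrogenase control were compared between mouse induced pluripotent stem cell lines made with an shRNA against E-cadherin and lines made with a control shRNA. The members are 38 genes listed by name, a choice made with earlier results of these arrays known, so their counts are not independent of the data. Each was read from the brightest probeset (highest mean over the 6 arrays) that the platform annotation gives a single symbol. Of these, 34 could be read in this way, among 19938 genes in all. Gpi1, Pfkfb1, Eno1 and Gapdh had no such probeset in the table used here, and Gapdh is described below only through probesets it shares with other symbols.

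The 3 shECAD lines (clones 4, 8 and 9) and the 3 control lines (clones 2, 3 and 4) all descend from OG2 mouse embryonic fibroblasts, a strain whose green fluorescent reporter is driven by Oct4 sequences. All 6 lines received retroviral Sox2, Klf4, Oct4 and c-Myc. With these came a hairpin against E-cadherin in the shECAD lines and a hairpin against luciferase, which mouse cells lack, in the control lines. Each line was picked as a colony on day 14, was kept on feeder cells that were removed before RNA extraction, and was hybridised to 1 array. Each group thus holds 3 clones, and this small number limits the precision. Whether the clones come from separate infections is not stated in the labels, and a p-value here reflects clone-to-clone spread. On the deposited log2 scale, on which all levels below are given, Cdh1, the gene of E-cadherin, read 6.75, 6.92 and 7.81 in shECAD clones 4, 8 and 9, against 9.18, 9.61 and 9.07 in control clones 2, 3 and 4. Its log2 fold change was -2.13 ± 0.27 (SE, limma adjusted p = 0.00683). The median log2 value of the 6 arrays lay between 5.11 and 5.30.

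Glycolysis turns glucose into pyruvate in the cytosol. Pyruvate is then either reduced to lactate, which leaves the cell through monocarboxylate transporters, or passed into the mitochondrion, where the pyruvate dehydrogenase complex turns it into acetyl-CoA under the control of inhibitory kinases and activating phosphatases. Pluripotent cells are known for active glycolysis, and several glycolytic genes are known targets of hypoxia-inducible factors and of Myc.

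In the shECAD clones, 7 of the 34 members rose and 0 fell, where limma at an adjusted p below 0.05 called 3.12% of all genes, 1.9% higher and 1.23% lower. Those calls over all genes were 378 higher and 245 lower, and after median centring of the arrays they were 303 higher and 377 lower, with 6 members higher and 0 lower. The 7 lie at separate points of the path. They are the lactate exporter gene Slc16a3, the phosphofructokinase gene Pfkl, the regulator gene Pfkfb3, the triose phosphate isomerase gene Tpi1, the phosphoglycerate kinase gene Pgk1, the enolase gene Eno2 and the lactate dehydrogenase gene Ldha. The rises ran from 1.68-fold (Eno2) to 2.54-fold (Slc16a3). Among the 27 members that were not called, log2 fold changes ran from -0.63 (Pdhb) to 0.81 (Slc2a1). The median log2 fold change of the 34 members was 0.12 and their mean 0.20, against 0.025 and 0.02 for all genes.

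At an unadjusted limma p below 0.05, 11 members were higher and 4 lower, where 8.96% and 9.07% of all genes were. In 12 members every shECAD clone read above every control clone, as in 11.1% of all genes, and in 3 members every shECAD clone read below every control clone, as in 12.5% of all genes. Together these are 15 members without overlap, a state found in 23.6% of all genes. The 12 are the 7 called genes with Slc2a1, Slc2a3, Aldoa, Pgam1 and Pkm, and the 3 are Hk2, Pdhb and Dld. The number of calls depended on single clones. Without shECAD clone 8 or without control clone 4 only Slc16a3 was called, and 4 to 5 members were called when another clone was left out. Without limma's moderation of variances, 0 members and 3 of all genes were called.

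**Figure D1:**
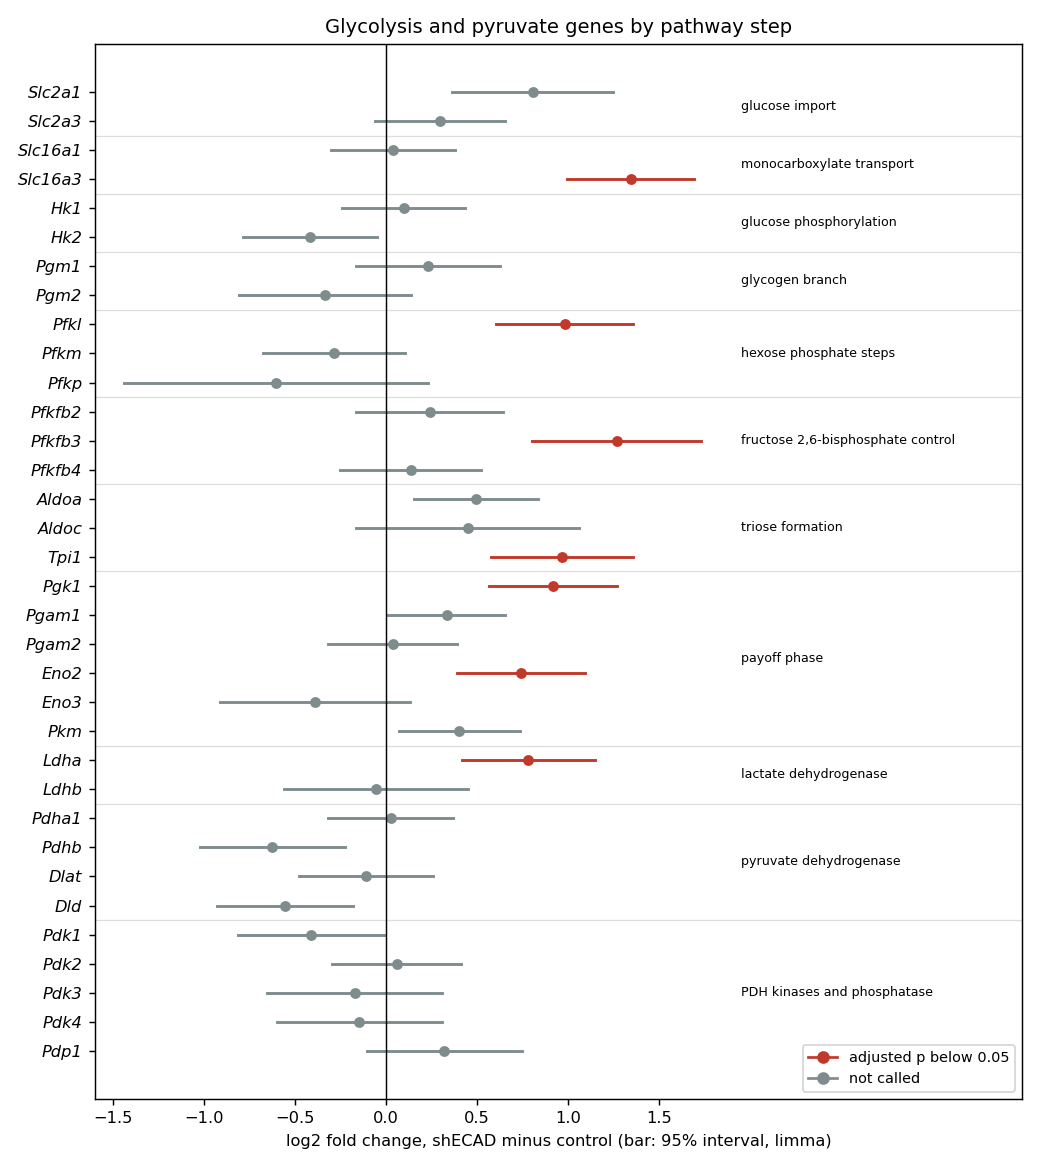
Log2 fold change (shECAD minus control, x axis) of the 34 measured members, one row per gene in pathway order, with points for estimates and bars for 95% intervals from limma. The 7 called genes (red) lie between 0.74 (Eno2) and 1.35 (Slc16a3), and the pyruvate dehydrogenase genes Pdhb and Dld lie lowest of their step at -0.63 and -0.56.

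Fibroblast and feeder markers were higher in the shECAD clones beside these genes. Of 19 measured markers limma called 13 higher and 0 lower, where it called 1.9% and 1.23% of all genes. Col1a1, a collagen gene, read 9.70, 9.90 and 9.84 in shECAD clones 4, 8 and 9, against 8.72, 7.77 and 7.03 in control clones 2, 3 and 4, and the proteoglycan gene Lum had the lowest log2 fold change of the list, -0.23. The mean log2 level of the 19 was 6.84, 7.14 and 6.83 in shECAD clones 4, 8 and 9, against 6.19, 5.77 and 5.11 in control clones 2, 3 and 4. The 7 called members averaged 8.58, 8.74 and 8.88 in the same shECAD clones, against 7.71, 7.80 and 7.68 in the same control clones. Among the control clones the marker level of clone 2 lay above that of clone 4 by more than 1 log2 unit. Their averages of the called members were nearly equal. The 7 genes were chosen by this same comparison, which favours genes with even control values, so nothing is concluded from that equality. None of 16 pluripotency markers was called. At an unadjusted limma p below 0.05, 5 were lower and 0 higher, where 9.07% and 8.96% of all genes were. All 16 lay at percentile 63.2 or higher of the control arrays. In bulk RNA a larger share of a cell type and more RNA per cell cannot be told apart, and the part of other cells in the rises was not tested.

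Neither glucose transporter gene was called, and Slc2a1 lay closest to the threshold. Slc2a1, the gene of the widespread glucose transporter GLUT1, read 10.59, 10.69 and 11.20 in shECAD clones 4, 8 and 9, against 9.88, 9.89 and 10.29 in control clones 2, 3 and 4. The groups did not overlap, with the highest value in shECAD clone 9 and control clone 4 nearest to the shECAD clones. The log2 fold change was 0.81 ± 0.20 (SE), or 1.75-fold with a 95% interval from 1.29 to 2.38, and the gene was not called (limma adjusted p = 0.0603). It passed among brighter genes alone (limma adjusted p = 0.0411) and with a robust prior that follows intensity (limma adjusted p = 0.0216). Slc2a3, the gene of the high-affinity transporter GLUT3, read 11.25, 11.20 and 11.21 in the shECAD clones, against 10.74, 10.85 and 11.17 in control clones 2, 3 and 4. The shECAD clones were nearly equal and control clone 4 was just below them, with a log2 fold change of 0.30 ± 0.16 (limma adjusted p = 0.364).

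Among the monocarboxylate transporters, the lactate exporter gene Slc16a3 (MCT4) rose, and Slc16a1, which encodes the more widespread transporter MCT1, did not pass the test. Slc16a3 read 8.28, 8.04 and 8.25 in shECAD clones 4, 8 and 9, against 7.01, 6.78 and 6.74 in control clones 2, 3 and 4. The gap between the groups was wide against the spread within either, with means of 8.19 ± 0.13 in shECAD clones and 6.84 ± 0.15 in control clones (SD, n = 3 each). The rise was 2.54-fold, with a 95% interval from 2.00 to 3.23 and a log2 fold change of 1.35 ± 0.16 (SE, limma adjusted p = 0.0046). Of the members it had the lowest adjusted p, and it was still called when any 1 clone was left out (limma adjusted p up to 0.0256). Slc16a1 lay between 8.97 and 9.31 in the shECAD clones and between 9.05 and 9.18 in the control clones, with overlapping groups, a log2 fold change of 0.04 and a 95% interval from -0.31 to 0.38. The within-array difference between both transporters, Slc16a3 minus Slc16a1, was -0.96 ± 0.24 in the shECAD clones and -2.27 ± 0.17 in the control clones (SD, n = 3 each).

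No hexokinase gene was called. Hk2, which encodes the inducible hexokinase of growing cells, read 8.78, 9.05 and 9.04 in shECAD clones 4, 8 and 9, against 9.58, 9.18 and 9.37 in control clones 2, 3 and 4. Every shECAD clone was below every control clone, but the log2 fold change of -0.42 ± 0.17 (SE) was not called (limma adjusted p = 0.218). For Hk1, the widespread hexokinase, the probeset chosen by brightness read 12.20 to 12.51 in the shECAD clones and 12.22 to 12.36 in the control clones, with a log2 fold change of 0.10. The annotation gives this probeset a single accession, which it also lists for each of 16 probesets named for both Hk1 and the ribosomal protein gene Rpl17, and these had log2 fold changes from -0.09 to 0.02. A dimmer Hk1 probeset, annotated with 8 accessions, read 6.58, 6.10 and 5.94 in the shECAD clones, against 6.29, 6.05 and 6.15 in control clones 2, 3 and 4, and had a log2 fold change of 0.04 ± 0.19 (SE, limma adjusted p = 0.937 over all probesets). Which of these probesets reads Hk1 mRNA was not tested. Pgm1 and Pgm2, the phosphoglucomutases that link glucose phosphate to glycogen and to pentoses, had log2 fold changes of 0.23 and -0.34 with overlapping groups, and neither was called.

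At the committed step, the liver-type phosphofructokinase gene Pfkl rose. It read 8.44, 8.64 and 8.80 in shECAD clones 4, 8 and 9, against 7.45, 7.85 and 7.64 in control clones 2, 3 and 4. This is 1.98-fold, with a 95% interval from 1.52 to 2.56 and a log2 fold change of 0.98 ± 0.17 (SE, limma adjusted p = 0.0179). The remaining subunit genes were not called. The platelet-type gene Pfkp read 7.90, 8.36 and 7.24 in the shECAD clones, against 7.81, 8.17 and 9.35 in control clones 2, 3 and 4, which made it the member with the widest spread, since control clone 4 lay far above the other control clones and shECAD clone 9 below the rest. Its log2 fold change was -0.61 ± 0.38 and that of the muscle-type gene Pfkm was -0.29 ± 0.18 (limma adjusted p = 0.439 and 0.432). Pfkp minus Pfkl within an array was -0.54, -0.27 and -1.56 in the shECAD clones and 0.36, 0.32 and 1.71 in control clones 2, 3 and 4, so that the groups did not overlap.

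Pfkfb3 encodes the enzyme that makes fructose 2,6-bisphosphate, the strongest activator of phosphofructokinase, and it rose. It read 5.82, 6.55 and 6.58 in shECAD clones 4, 8 and 9, against 5.10, 5.09 and 4.96 in control clones 2, 3 and 4. The control clones were nearly equal and shECAD clone 4 lay below the other shECAD clones. The fold was 2.41, with a 95% interval from 1.75 to 3.33 and a log2 fold change of 1.27 ± 0.21 (SE, limma adjusted p = 0.0151). In the control clones this probeset lay below the median gene of the array, at percentile 44.5 on average. Pfkfb2 and Pfkfb4, isoforms of the same enzyme, had log2 fold changes of 0.24 and 0.14 with overlapping groups, and neither was called. Pfkfb4 minus Pfkfb3 differed by -1.13 between shECAD and control clones.

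**Figure D2:**
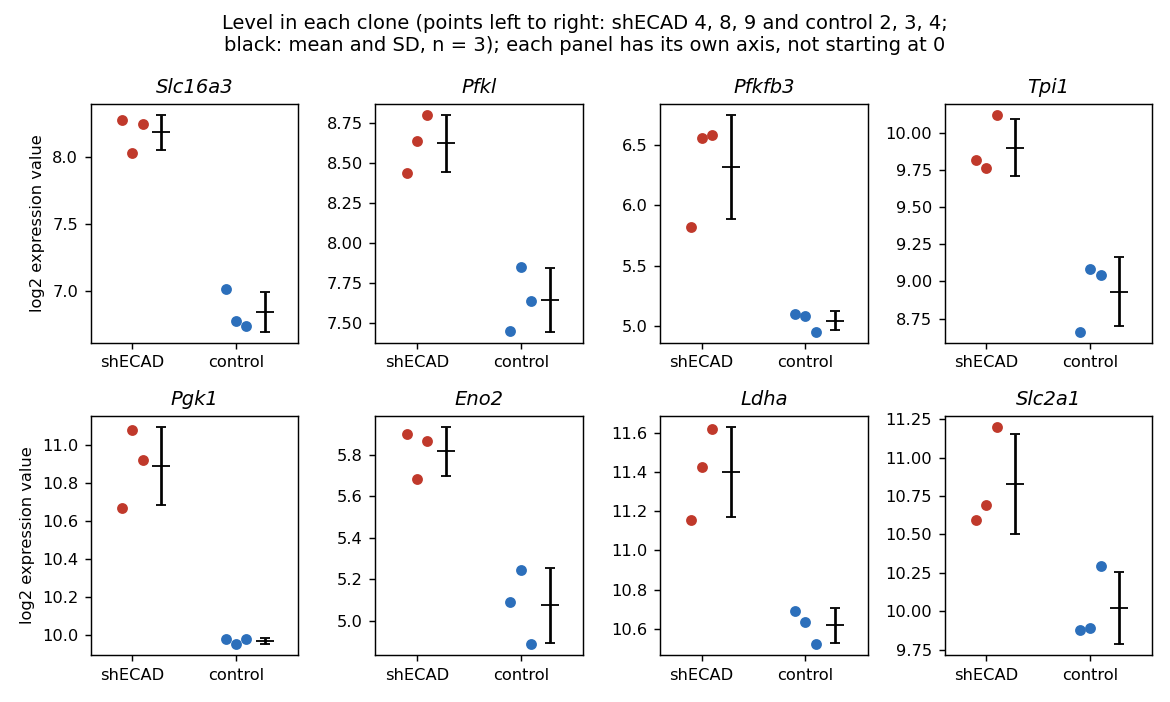
Log2 expression value (y axis, own scale in each panel) of the 7 called members and of Slc2a1 in every clone, with shECAD clones in red, control clones in blue and group mean and SD in black. The groups do not overlap in any panel. Pgk1 shows the tightest control values (9.96 to 9.98) and Pfkfb3 a lower shECAD clone 4 (5.82).

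Of the enzymes that form and interconvert the trioses, Tpi1 rose. The triose phosphate isomerase gene read 9.81, 9.76 and 10.12 in shECAD clones 4, 8 and 9, against 8.66, 9.08 and 9.04 in control clones 2, 3 and 4. The rise was 1.96-fold (95% interval 1.49 to 2.57, log2 fold change 0.97 ± 0.18 SE, limma adjusted p = 0.0216). Tpi1 lost its call without shECAD clone 4, 8 or 9 and without control clone 4 (limma adjusted p up to 0.0614). Aldoa, the main aldolase gene outside the liver, read 11.44, 11.66 and 11.66 in the shECAD clones, against 11.03, 11.00 and 11.24 in control clones 2, 3 and 4, without overlap. Its log2 fold change of 0.49 ± 0.15 was not called (limma adjusted p = 0.118). Aldoc, the brain aldolase gene, varied more between clones (6.21 to 7.10 in shECAD, 5.61 to 6.52 in control) and its groups overlapped, with a log2 fold change of 0.45 ± 0.28.

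In the energy-yielding phase of the path, Pgk1 and Eno2 rose. Pgk1 encodes phosphoglycerate kinase, which makes the first ATP of the path, and read 10.67, 11.08 and 10.92 in shECAD clones 4, 8 and 9, against 9.98, 9.96 and 9.98 in control clones 2, 3 and 4. The control clones differed by less than the smallest gap to a shECAD clone. The rise was 1.89-fold (95% interval 1.48 to 2.41, log2 fold change 0.92 ± 0.16 SE, limma adjusted p = 0.0176). A pair of dimmer Pgk1 probesets with identical values gave a log2 fold change of 0.81 ± 0.26 (SE, limma adjusted p = 0.183 over all probesets) without overlap, and with the mean of the gene's probesets Pgk1 was no longer called (limma adjusted p = 0.0614). Eno2, the neuron-specific enolase gene, read 5.90, 5.68 and 5.87 in the shECAD clones, against 5.09, 5.24 and 4.89 in control clones 2, 3 and 4. The rise of 1.68-fold (95% interval 1.31 to 2.14, log2 fold change 0.74 ± 0.16 SE, limma adjusted p = 0.0353) was the smallest of the 7, in a probeset at percentile 44.8 of the control arrays. Eno2 lost its call when any 1 clone was left out, with limma adjusted p-values up to 0.154. Eno3, the muscle enolase gene, had a log2 fold change of -0.39 ± 0.24 with overlapping groups.

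The remaining genes of that phase were not called or could not be read alone. Pgam1, the phosphoglycerate mutase gene, read 10.12, 10.23 and 10.25 in the shECAD clones, against 9.79, 9.84 and 9.98 in control clones 2, 3 and 4, and Pkm, the pyruvate kinase gene, read 11.25, 11.28 and 11.53 in the shECAD clones, against 10.95, 10.93 and 10.98 in control clones 2, 3 and 4. Neither gene had overlapping groups and neither was called, with log2 fold changes of 0.33 ± 0.15 and 0.40 ± 0.15 (SE, limma adjusted p = 0.263 and 0.189). Their other probesets gave 0.36 and 0.39 for Pgam1 and 0.35 for Pkm, again without overlap. The muscle mutase gene Pgam2 had a log2 fold change of 0.04. Gapdh, the glyceraldehyde phosphate dehydrogenase gene often used as a constant standard, is named in 25 probesets that also list other symbols. Their log2 fold changes ran from -0.04 to 0.14 with a median of 0.09, and groups overlapped in 14 of them. Several of these probesets have identical values (20 distinct sets), so they are not independent readings.

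Of the lactate dehydrogenase genes, Ldha rose and Ldhb was not called. Ldha, the gene of the subunit that favours lactate formation, read 11.16, 11.42 and 11.62 in shECAD clones 4, 8 and 9, against 10.69, 10.64 and 10.52 in control clones 2, 3 and 4. The rise was 1.72-fold (95% interval 1.33 to 2.21, log2 fold change 0.78 ± 0.17 SE, limma adjusted p = 0.0339). It was called without shECAD clone 4 and lost its call when any other 1 clone was left out (limma adjusted p up to 0.142). Ldhb, the gene of the heart-type subunit, read 7.14, 6.99 and 7.73 in the shECAD clones, against 7.04, 7.31 and 7.67 in control clones 2, 3 and 4, and these groups overlapped (log2 fold change -0.05 ± 0.23). Ldhb minus Ldha averaged -4.11 ± 0.29 in the shECAD clones and -3.28 ± 0.41 in the control clones (SD, n = 3 each).

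Of the 4 pyruvate dehydrogenase genes, 0 were called by limma and 2 were lower at an unadjusted p below 0.05, where 9.07% of all genes were. Those 2, Pdhb and Dld, read lower in every shECAD clone than in any control clone, as did 12.5% of all genes. Pdhb, which encodes the beta subunit of the decarboxylating enzyme, read 8.01, 8.27 and 7.94 in shECAD clones 4, 8 and 9, against 8.43, 8.97 and 8.70 in control clones 2, 3 and 4, a log2 fold change of -0.63 ± 0.18 (SE, limma adjusted p = 0.0943). It was called with a robust prior that follows intensity (limma adjusted p = 0.0498). Dld, the gene of the lipoamide dehydrogenase that the complex shares with other dehydrogenases, read 7.98, 8.18 and 7.66 in the shECAD clones, against 8.46, 8.57 and 8.45 in control clones 2, 3 and 4. Its log2 fold change was -0.56 ± 0.17 (limma adjusted p = 0.112). Pdha1, the alpha subunit gene, and Dlat, the acetyltransferase gene, had overlapping groups and log2 fold changes of 0.03 (95% interval -0.32 to 0.37) and -0.11 (-0.48 to 0.26).

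None of the 4 kinase genes that switch the complex off was called, nor was the phosphatase gene Pdp1, which switches it on. Pdk1, a known hypoxia target among the kinases, read 7.65, 7.87 and 8.11 in the shECAD clones, against 8.04, 8.48 and 8.35 in control clones 2, 3 and 4. Only shECAD clone 9 reached the control range, and the log2 fold change was -0.41 ± 0.18 (SE, limma adjusted p = 0.265). Pdk2, Pdk3 and Pdk4 had log2 fold changes of 0.06, -0.17 and -0.15 and Pdp1 had one of 0.32, with overlapping groups in each.

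**Figure D3:**
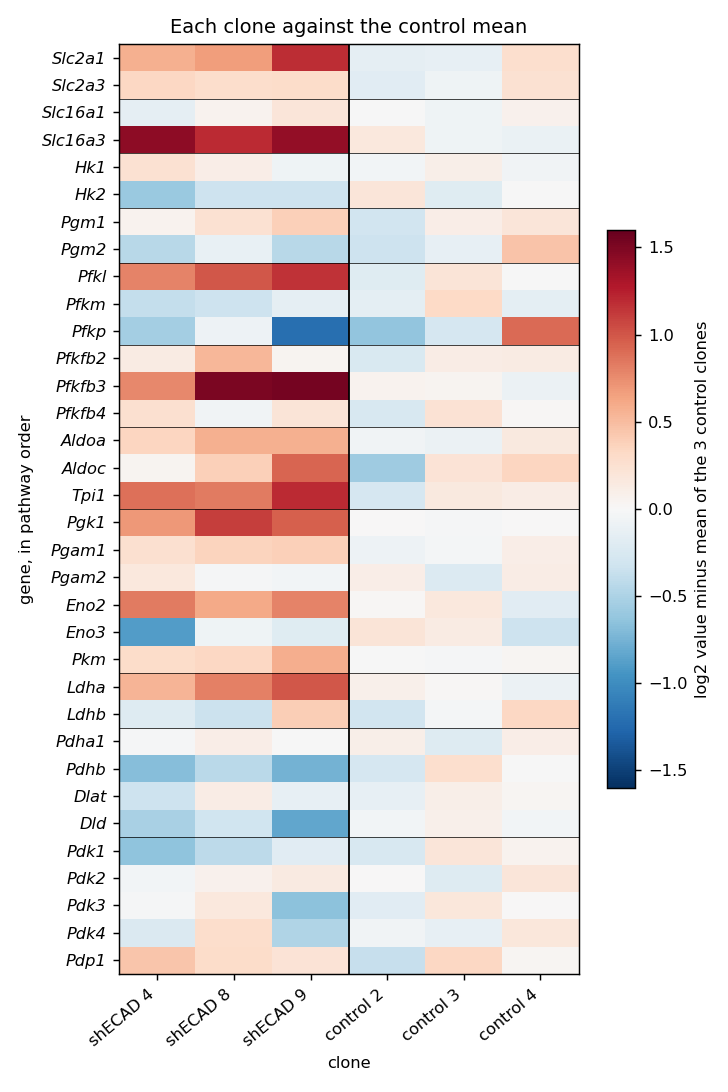
Log2 value of each member (rows, in pathway order) in each clone (columns) minus the mean of the 3 control clones, from blue (lower) to red (higher). The called members average 0.85, 1.01 and 1.15 above the control mean in shECAD clones 4, 8 and 9, and Pfkp shows opposite extremes in shECAD clone 9 and control clone 4.

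Isoform pairs were compared within arrays, and 8 pairs could be formed. In 5 of them the shECAD and control values of the difference did not overlap. These were Slc2a3 and Slc2a1, Slc16a3 and Slc16a1, Pfkp and Pfkl, Pfkfb4 and Pfkfb3, and Ldhb and Ldha. For each the two-sided exact permutation test gave p = 0.1, the smallest that 20 labellings allow, or 0.16 after adjustment over the 8 pairs. Slc16a3, Pfkl, Pfkfb3 and Ldha were called by this same comparison, which favours separation of their pairs. The share of other gene pairs without overlap was not computed. Hk2 minus Hk1, read with the brighter Hk1 probeset whose accession is shared with Rpl17 probesets, differed by -0.52 (exact permutation p = 0.2). With the mean of each gene's probesets it differed by -0.49 (exact permutation p = 0.1), again the smallest p possible. Pdk1 minus Pdk3 differed by -0.24 (exact permutation p = 0.4) and Aldoc minus Aldoa by -0.05 (exact permutation p = 1.0). Such a difference would reflect unequal change of the paired genes and does not say which of them was constant. As the exact permutation p cannot fall below 0.1 here, unequal change is not shown for any pair. The pair of Eno2 and Eno1 could not be formed.

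The 3 shECAD clones were not equal in the called genes. Averaged over the 7, clone 9 read 1.15, clone 8 read 1.01 and clone 4 read 0.85 above the control mean, while the control clones lay within 0.07 of it. Clone 9 was the highest of the shECAD clones in 4 of the 7 genes, clone 4 in 2 and clone 8 in 1. These averages rest on genes chosen by this comparison and are given as a description.

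Promoter sequences are shown for 3 of the 4 called genes that have a window with at least 2 matches to the pentamer ACGTG. This is a form of the core of the element bound by hypoxia-inducible factors. The fourth, Pfkfb3, has 2 annotated windows, with 2 matches and 1 match, and is not printed. Ldha also has 2 annotated windows, and the one printed holds all its matches, while the other has 0. The windows are the 250 bases before the annotated start, 5′ to 3′ on the gene's strand, from RefSeq (GRCm38.p6), at chr11:120948817-120949066 for Slc16a3, chrX:106186850-106187099 for Pgk1 and chr7:46845554-46845803 for Ldha, all on the plus strand. Capitals mark ACGTG on either strand, which reads CACGT on the opposite one, and CACGTG counts once on each strand.
Slc16a3: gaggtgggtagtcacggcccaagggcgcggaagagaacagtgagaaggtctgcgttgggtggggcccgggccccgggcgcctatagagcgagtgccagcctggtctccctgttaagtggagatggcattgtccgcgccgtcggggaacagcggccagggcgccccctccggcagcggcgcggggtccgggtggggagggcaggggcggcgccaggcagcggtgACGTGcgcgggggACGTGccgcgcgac
Pgk1: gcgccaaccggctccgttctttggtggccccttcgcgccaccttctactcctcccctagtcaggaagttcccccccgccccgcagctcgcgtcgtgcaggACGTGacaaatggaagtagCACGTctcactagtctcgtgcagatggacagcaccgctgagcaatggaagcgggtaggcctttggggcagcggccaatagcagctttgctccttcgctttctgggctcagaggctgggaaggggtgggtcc
Ldha: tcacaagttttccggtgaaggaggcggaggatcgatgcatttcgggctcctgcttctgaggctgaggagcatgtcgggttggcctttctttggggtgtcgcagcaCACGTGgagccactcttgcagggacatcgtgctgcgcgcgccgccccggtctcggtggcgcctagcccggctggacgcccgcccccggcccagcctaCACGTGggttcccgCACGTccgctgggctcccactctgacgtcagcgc

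By this count Slc16a3 and Pgk1 have 2 matches each and the printed Ldha window has 5, of which 4 come from its 2 CACGTG sequences, a motif also bound by Myc. Of the 7 called members 4 have ACGTG in a window (57.1%), and so do 13 of the 25 other members that have a window (52.0%). The motif is in 16.6% of all 32851 windows and in at least 1 window of 20.9% of the 15614 tested genes that have one. Tpi1, Pfkl and Eno2 have no ACGTG in these windows. At least 2 matches in a window were found in 4 of the 7 called members, in 6 of the 25 others (24.0%) and in 9.1% of tested genes with a window. Hk2, which was not called, is among those 6. A single CACGTG is enough for 2 matches, also in the share of tested genes. This is so in Pfkfb3 and, among those 6, in Slc16a1, Pfkm, Pfkfb2 and Pdk2. In Hk2 and Pgm1, as in Slc16a3 and Pgk1, the 2 matches lie apart. The other form of that core, GCGTG, is not marked in the printed sequences. It is in a window of 3 of the 7 called members (42.9%), Pfkl among them. For the 25 others the count is 16 (64.0%), against 39.4% of tested genes with a window. A match is a description of the letters and not a binding site. Eno2 and Tpi1 are near neighbours on chromosome 6 of that assembly, and the 2 tested genes between them, Lrrc23 and Spsb2, had log2 fold changes of 0.46 and -0.20 and were not called.

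Another 97 genes were listed, here named other pathway genes, and 91 of them could be read. They are genes of the path and its branches and 15 hypoxia reporters. By limma 6 were called higher and 1 lower, where 1.9% and 1.23% of all genes were. Of these calls, 5 of the higher and the 1 lower were in the hypoxia list. In the list of remaining isoforms, which includes the transporters and enzymes of liver, muscle and testis, 0 of 21 were called. Of the 21, 1 had an unadjusted limma p below 0.05, where 18% of all genes did. The 3 with the largest change were Slc2a6, Slc2a10 and Slc16a8, with log2 fold changes of 0.52, 0.48 and 0.44. None of 14 genes of other pyruvate steps was called (3 at an unadjusted limma p below 0.05). There the largest differences were in the gluconeogenic phosphatase genes Fbp2 and Fbp1 and in the malic enzyme gene Me1, with log2 fold changes of 0.65, 0.63 and 0.59. Of 16 genes of glycogen and side branches only the glycogen phosphorylase gene Pygl was called. It read 4.66, 4.88 and 4.85 in shECAD clones 4, 8 and 9, against 4.14, 4.18 and 3.96 in control clones 2, 3 and 4. Its log2 fold change was 0.70 ± 0.15 (SE, limma adjusted p = 0.0365), in a dim probeset at percentile 25.4 of the control arrays. The other phosphorylase genes, Pygb and Pygm, had log2 fold changes of -0.38 and -0.28 and were not called (limma adjusted p = 0.267 and 0.442).

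The pentose phosphate and citrate cycle lists had no called gene. At an unadjusted limma p below 0.05, 9.07% of all genes were lower. Of 7 pentose phosphate genes 0 were called and 2 were lower at that p. These were Taldo1 and Tkt, the transaldolase and transketolase genes, with log2 fold changes of -0.47 and -0.43. Rpia, the third by size, had 0.25. Of 18 citrate cycle genes 0 were called and 2 were lower at an unadjusted limma p below 0.05. A negative log2 fold change was found in 14, with a median of -0.16. The median was 0.025 over all genes and -0.092 among brighter genes only. Whether brightness has a part in the citrate cycle values was not tested. The largest were -0.43 for Ogdh, -0.42 for Sdha and -0.41 for Dlst.

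Of 15 measured genes in the hypoxia reporter list 5 rose and 1 fell by limma, where 1.9% and 1.23% of all genes did. A positive log2 fold change was found in 12. In this list the 3 negative values belong to Hif1a, Epas1 and Arnt, the genes of the factors themselves rather than of their targets. The list leaves out the 34 members, of which 22 had a positive and 12 a negative log2 fold change. Among those 12 were Pdk1, a known hypoxia target, with -0.41 and Hk2 with -0.42, neither of them called. In 9 of the 15 every shECAD clone read above every control clone, as in 11.1% of all genes. In 2 every shECAD clone read below every control clone, as in 12.5% of all genes. The prolyl hydroxylase subunit gene P4ha1, which acts on collagen, rose 2.28-fold to 7.56, 7.70 and 7.37 in shECAD clones 4, 8 and 9, against 6.37, 6.39 and 6.29 in control clones 2, 3 and 4 (limma adjusted p = 0.007). The mitophagy gene Bnip3 rose 2.60-fold, the mTOR inhibitor gene Ddit4 2.17-fold, the stress gene Ndrg1 2.09-fold and the peptide hormone gene Adm 1.77-fold (limma adjusted p = 0.0467, 0.0326, 0.0319 and 0.0337). Epas1, the gene of the factor HIF-2 alpha, fell to 6.43, 6.52 and 5.64 in the shECAD clones, against 7.33, 7.12 and 7.50 in control clones 2, 3 and 4 (log2 fold change -1.12 ± 0.23 SE, limma adjusted p = 0.0325). The other 9 were not called. Of these, Egln3, P4ha2, Egln1 and Ankrd37 had log2 fold changes of 0.94, 0.80, 0.46 and 0.43 without overlap between the groups, and Arnt had -0.44, with every shECAD clone lower. Hif1a, Vegfa, Higd1a and Car9 had -0.05, 0.17, 0.15 and 0.08 with overlapping groups. This list was put together with earlier results of these arrays known, so its direction is no independent evidence. Without any 1 clone, limma called 1 to 3 of the other pathway genes higher and 0 lower.

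**Figure D4:**
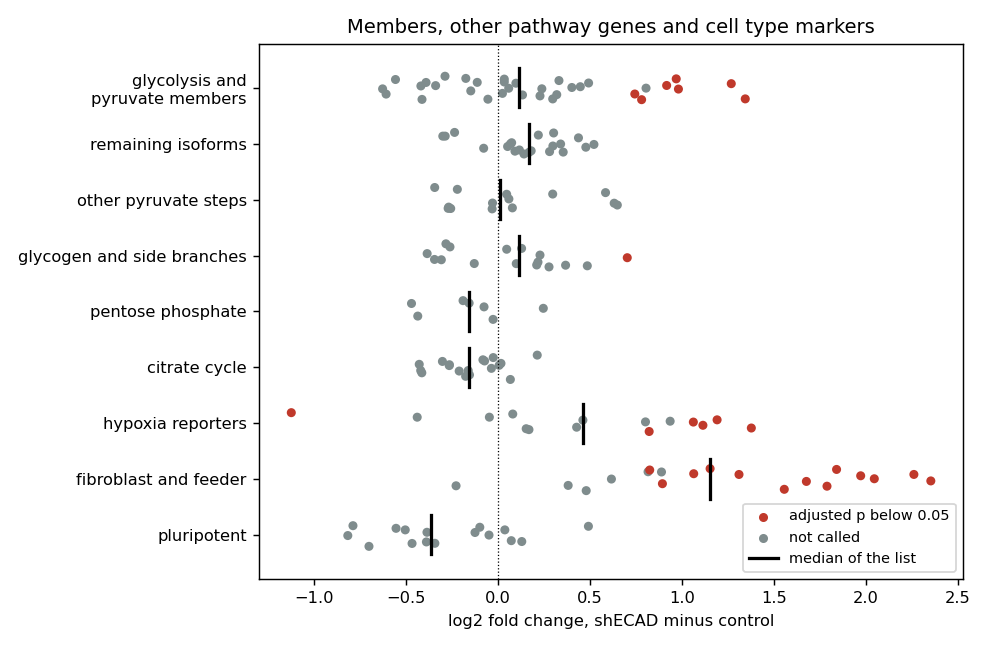
Log2 fold change (shECAD minus control, x axis) of each gene, in rows for the members, the other pathway lists and the marker lists, with called genes in red and a bar at each list's median. The members' median is 0.12, that of the hypoxia reporters 0.46, that of the citrate cycle -0.16 and that of the fibroblast and feeder markers 1.15.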

How the data were processed

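The authors deposited log2 expression values per probeset, and the submitters' processing notes name RMA and Partek. No version, setting or genome build was found for that step. The values run from 0.949 to 14.044, and they were used as deposited. The platform annotation gave 1 symbol to 21789 of 28853 probesets, several to 1621 and none here to 5443. Symbols were set through Entrez identifiers to RefSeq names (GRCm38.p6, 21698 matched, 0 changed). The brightest probeset stood for each of 19938 genes, with no filter on dim genes. Probeset levels of different genes are not compared as mRNA amounts.

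The 3 shECAD and 3 control clones were compared with limma 3.58.1 (lmFit, eBayes) in R 4.3.3, without covariates, and p-values were adjusted over all genes (Benjamini-Hochberg). Genes with an adjusted p below 0.05 are said to be called. Each log2 fold change is the shECAD mean minus the control mean. Isoform differences within arrays were tested by exact permutation, two-sided. The method was also run on simulated data (19938 genes, 50 changed at each size). There 60% of genes changed by 1 log2 unit, 92% of those changed by 2 and 0% of those changed by 0.5 were recovered. In the simulation 2 unchanged genes were called. It used independent noise and changed fewer genes than the 623 called in the data, so recovery in the real comparison may differ.

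All members are named. Of each other list, the up to 5 largest calls are named, or, with no call, the 3 largest changes. The other hypoxia reporters, Pygb, Pygm, Lrrc23 and Spsb2 were chosen after their values were seen. The members and lists were chosen with earlier results of these data known. RefSeq promoter windows were found for 32 of the 34 members; 1627 overlapping window pairs of opposite strands matched as reverse complements. The alternatives are other scalings, probeset choices, priors, weights, thresholds and leaving out each clone. Figures were drawn with matplotlib 3.10.9.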

Additional observations from a re-analysis of the deposited data

How the results depend on the processing

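Across the alternative settings, 25 of the 34 members kept their sign in every setting that gave a value, the 7 called members among them. No paired analysis was possible because the groups share only the clone number 4. The 7 rises became 6 after median centring, where Eno2 was lost (limma adjusted p = 0.0546), 10 with a robust prior that follows intensity and 0 without variance moderation. Without 1 clone they numbered 1 to 5. Members called lower numbered 1 (Pdhb) with that prior and at an adjusted p below 0.1, and 0 without any 1 clone. All genes called numbered 1067 with array quality weights, 3 without variance moderation and 1278 at an adjusted p below 0.1, and 146 to 543 without 1 clone. Other pathway genes called higher numbered 3 after median centring, 0 without variance moderation and 1 to 3 without 1 clone. Those called lower numbered 0 without variance moderation and also 0 without any 1 clone. The median of the members was 0.029 after median centring, where that of all genes was -0.062, and 0.235 among brighter genes only, where 30 members remained and that of all genes was -0.092. Fits without a clone hold fewer clones, and otherwise the cause of a lost call was not tested.

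The 9 members that turned had small changes. After median centring the log2 fold changes were -0.051 for Slc16a1, -0.052 for Pgam2, -0.062 for Pdha1 and -0.028 for Pdk2. After quantile normalization they were -0.068 for Pgam2, 0.068 for Ldhb, 0.012 for Dlat and -0.033 for Pdk2, and with array quality weights -0.039 for Slc16a1, -0.014 for Pdha1 and -0.031 for Pdk2. Hk1 had -0.005 with shared probesets included and Ldhb 0.017 with the mean of its probesets. With 1 clone left out the lowest and highest values were -0.044 and 0.126 for Slc16a1, -0.074 and 0.094 for Pgam2, -0.276 and 0.113 for Ldhb, -0.075 and 0.077 for Pdha1, -0.042 and 0.156 for Pdk2, -0.342 and 0.069 for Pdk3 and -0.358 and 0.020 for Pdk4. The number of clones limits these results.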
